A study of Mus musculus with 2 samples.

Results

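The 9 Toll-like receptors (TLRs) numbered from *Tlr1* to *Tlr9* and their adaptor *Myd88* were examined in mouse liver. They were selected by gene symbol and make up 10 of the 45777 genes in the deposited table. All 10 were detected in both libraries and passed the count filter. The livers came from C57BL/6 mice (C57BL/6 N in the methods) on a high-fat diet (HFD) that received AAV-GFP, the control virus, or AAV-*Wee1-AS*, which carries the long noncoding RNA *Wee1-AS*. The diet began at 7 weeks of age and lasted 18 weeks, and the virus was given by retro-orbital injection at week 13 of the diet. Both groups shared the diet, the strain and exposure to an adeno-associated virus. The *Wee1-AS* vector was of serotype AAV9 with the CMV promoter, so neither the capsid nor the promoter limits expression to hepatocytes. The sex of the mice and whether animals were pooled are not stated in the sources used here. One library of poly-A RNA per group was analysed, with 55466182 estimated counts in the control library and 48079335 in that of AAV-*Wee1-AS*, although the design text speaks of 4 liver samples. No spread between mice could therefore be estimated, the comparison has no replicate check, and no p-value is given. *Wee1-AS*, the delivered transcript, was not analysed here, so the delivery itself was not checked. The hepatocyte markers checked the label of the tissue: all 10 were detected, and they summed to 110862 TPM (a level scaled for transcript length and to the same total in each library) with AAV-GFP and 113216 with AAV-*Wee1-AS*.

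TLRs are membrane receptors that recognize conserved microbial molecules and some self molecules. *Tlr1*, *Tlr2*, *Tlr4*, *Tlr5* and *Tlr6* act mainly at the cell surface on lipoproteins, lipopolysaccharide and flagellin. *Tlr3*, *Tlr7*, *Tlr8* and *Tlr9* act in endosomes on nucleic acids. After ligand binding, the TIR domain inside the cell recruits an adaptor. Every TLR studied here except *Tlr3* can use MYD88, which assembles IRAK kinases and leads to activation of NF-κB and MAP kinases. *Tlr3* uses TRIF, encoded by *Ticam1*, and *Tlr4* uses both. In liver, these receptors are known from Kupffer cells, the resident macrophages, and also from other immune cells, endothelial cells, stellate cells and hepatocytes, which meet microbial products arriving from the gut through the portal vein.

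The adaptor use of *Tlr3*, though not that of *Tlr4*, is marked in the BB loop of the TIR domain. This short stretch takes part in the contact between TIR domains. The coding sequences of this stretch are shown because they mark the one member that does not signal through MYD88. They are taken from the GENCODE M21 annotation of the mouse genome build GRCm38 (mm10), lie in coding exons, and are written in the sense of the gene with the codon of the BB-loop proline, or its counterpart, in capitals.
Tlr1: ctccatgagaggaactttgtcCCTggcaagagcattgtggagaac
Tlr2: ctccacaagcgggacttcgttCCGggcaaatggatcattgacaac
Tlr3: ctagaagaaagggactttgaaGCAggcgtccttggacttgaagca
Tlr4: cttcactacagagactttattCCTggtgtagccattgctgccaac
Tlr5: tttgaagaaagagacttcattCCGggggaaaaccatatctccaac
Tlr6: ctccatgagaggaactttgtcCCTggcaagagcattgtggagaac
Tlr7: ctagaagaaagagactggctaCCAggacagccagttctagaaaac
Tlr8: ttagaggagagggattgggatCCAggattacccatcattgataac
Tlr9: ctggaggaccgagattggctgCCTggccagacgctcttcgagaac
Myd88: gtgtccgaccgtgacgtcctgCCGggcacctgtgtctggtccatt

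The stretches lie at chr5:64925178-64925222 (minus strand) for *Tlr1*, chr3:83836711-83836755 (minus) for *Tlr2*, chr8:45397450-45397494 (minus) for *Tlr3*, chr4:66841084-66841128 (plus) for *Tlr4* and chr1:182975362-182975406 (plus) for *Tlr5*. Those of the others lie at chr5:64953469-64953513 (minus) for *Tlr6*, chrX:167305660-167305704 (minus) for *Tlr7*, chrX:167243087-167243131 (minus) for *Tlr8*, chr9:106226233-106226277 (plus) for *Tlr9* and chr9:119338029-119338073 (minus) for *Myd88*. *Myd88* and 8 receptors have a codon for proline at this position, and *Tlr3* has one for alanine. The stretches of *Tlr1* and *Tlr6* are identical. Over their whole coding sequences, *Tlr1* and *Tlr6*, neighbours on chromosome 5, share an identical run of 229 bases. Of all windows of 100 bases, the length of a sequenced read, 259 occur in both genes, 11.3% of those of *Tlr1* and 11.2% of those of *Tlr6*. Reads from these shared windows could be assigned to either gene, so the separate values of *Tlr1* and *Tlr6* are uncertain. None of the other 44 pairs of members shares a run longer than 16 bases.

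Set against the control library, 7 of the 10 members were higher and 3 were lower with AAV-*Wee1-AS*. Of the 7, *Tlr5* was at a log2 ratio of 0.02 and had no stable direction. The ratio of scaled counts was above 2 for 3 members, *Tlr3*, *Tlr4* and *Tlr7*, against 22.2% of the 15857 genes tested. It was below 0.5 for none of the 10, against 8.71% of all genes. The median log2 ratio of the members was 0.85, and that of all genes was -0.02. The 95% counting interval of the ratio lay wholly above equality for 6 members, against 39.1% of all genes, and wholly below it for 3, against 38.0%. These intervals are exact (Clopper-Pearson), compare the 2 libraries and not the treatments, and cover counting error only. With trends of the ratio with GC content and transcript length removed, no member was above 2 (6.38% of all genes were) and none was below 0.5 (8.40%). The tissue is a mixture of cells, so a change in the number of cells of a type and a change in RNA per cell cannot be told apart here.

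**Figure D1:**
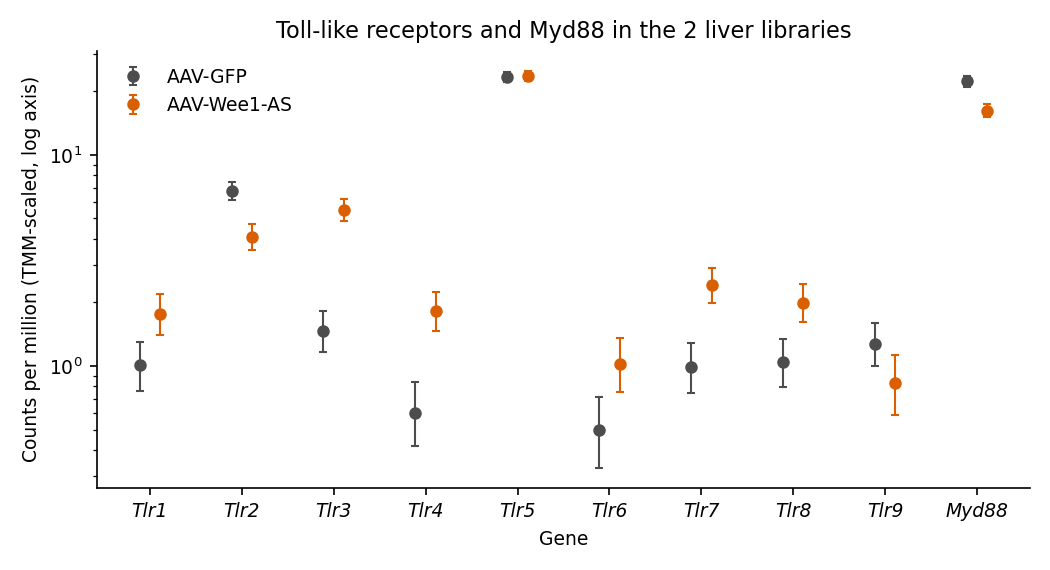
TMM-scaled CPM, counts scaled to the library size (log axis), of the 9 receptors and *Myd88* in the AAV-GFP library (grey) and the AAV-*Wee1-AS* library (orange), 1 library each. Bars are exact 95% Poisson intervals and cover counting error only. *Tlr5* and *Myd88* stand above the other members in both libraries, and the intervals of the 2 libraries overlap for *Tlr5* and *Tlr9* and are apart for the other 8 members.

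Among the surface receptors, *Tlr5*, the flagellin receptor (NCBI gene 53791, chr1:182954752-182976044), was by far the most abundant, with 1320 estimated counts with AAV-GFP and 1115 with AAV-*Wee1-AS*. Its levels per length were 11.3 and 11.5 TPM, and its log2 ratio was 0.02 (95% counting interval -0.10 to 0.14). The sign of that ratio was negative under each of 3 other scalings, so *Tlr5* has no stable direction, and with the trends removed its log2 ratio was -0.50. *Tlr2* (NCBI gene 24088, chr3:83836272-83841824), the shared partner in the recognition of bacterial lipopeptides, had 382 counts with AAV-GFP and 193 with AAV-*Wee1-AS*. Its log2 ratio was -0.72 (-0.98 to -0.47), or 1.64-fold lower, and its level was 4.05 against 2.41 TPM. *Tlr2* had the lowest ratio of the members, and its log2 ratio was -0.83 after removal of the trends.

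The partners of *Tlr2* went the other way in these libraries. *Tlr1*, which pairs with it for triacylated lipopeptides (NCBI gene 21897, chr5:64924680-64933600), had 57 counts with AAV-GFP and 83 with AAV-*Wee1-AS*, a log2 ratio of 0.78 (0.30 to 1.32). *Tlr6*, which pairs with it for diacylated lipopeptides (NCBI gene 21899, chr5:64952030-64970942), had 28 and 48 counts, and its ratio of 1.98 lay just under the limit of 2 (log2 ratio 0.99, 0.34 to 1.77). After removal of the trends, the log2 ratios were 0.03 for *Tlr1* and 0.19 for *Tlr6*. The annotated span of *Tlr6* overlaps that of *Fam114a1* by 868 bases. *Fam114a1* had 1041 and 1430 counts, and whether counting used the strand is not given in the sources used here. The *Tlr6* transcript of 2678 bases, which reaches the overlap, had 0 counts in both libraries. All counts of *Tlr6* lay on transcripts that end before the overlap, at 64959428 and 64960048. *Tlr4*, the lipopolysaccharide receptor (NCBI gene 21898, chr4:66827551-66846581), was the lowest member per length in both libraries, at 0.129 and 0.390 TPM. That rank rests on the length of its deposited transcript, 7891 bases, and *Tlr4* was not the lowest by counts. It had 34 counts with AAV-GFP and 86 with AAV-*Wee1-AS*, a ratio of 2.91 (log2 ratio 1.54, 1.01 to 2.22). With the trends removed, its log2 ratio was -0.0018. That removal used the GENCODE length of 4077 bases and not the deposited one, and with the GC trend alone removed the log2 ratio was 0.02. The counts of the 5 surface receptors summed to 1821 with AAV-GFP and 1525 with AAV-*Wee1-AS*, a log2 ratio of 0.01 (-0.09 to 0.11) in which *Tlr5* has most of the weight.

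Among the endosomal receptors, *Tlr3*, the sensor of double-stranded RNA (NCBI gene 142980, chr8:45395665-45411075), had the highest ratio of all members. It had 83 counts with AAV-GFP and 259 with AAV-*Wee1-AS*, a ratio of 3.68 (log2 ratio 1.88, 1.54 to 2.28). Its level was 0.555 against 2.09 TPM, and its log2 ratio was still the highest of the members, 0.32, with the trends removed. *Tlr7*, a sensor of single-stranded RNA (NCBI gene 170743, chrX:167303380-167330574), had 56 and 114 counts, a ratio of 2.39 (log2 ratio 1.26, 0.82 to 1.78). *Tlr8*, its neighbour and closest relative, a sensor of RNA breakdown products (NCBI gene 170744, chrX:167241123-167264329), had 59 and 94 counts, a ratio of 1.88 (log2 ratio 0.91, 0.45 to 1.43). Both turned negative after that removal, to -0.21 for *Tlr7* and -0.51 for *Tlr8*. For *Tlr8* the removal used a GENCODE length of 3431 bases, while its counts lay on deposited transcripts of 4905 and 5047 bases. With the GC trend alone removed, *Tlr8* was at -0.56. *Tlr9*, the sensor of unmethylated CpG DNA (NCBI gene 81897, chr9:106222598-106226876), was the one endosomal receptor that was lower with AAV-*Wee1-AS*. It had 72 and 39 counts, a log2 ratio of -0.60 (-1.22 to -0.04), and -0.12 with the trends removed. The counts of the 4 endosomal receptors summed to 270 with AAV-GFP and 506 with AAV-*Wee1-AS*, a log2 ratio of 1.16 (0.95 to 1.39), and the median of their 4 log2 ratios was -0.16 once the trends were removed.

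*Myd88* (NCBI gene 17874, chr9:119335934-119340018), the adaptor that the receptors other than *Tlr3* share with the signalling interleukin 1 receptors, had 1261 counts with AAV-GFP and 765 with AAV-*Wee1-AS*. Its level was 19.8 against 14.1 TPM, and its log2 ratio was -0.46 (-0.59 to -0.33), or 1.37-fold lower. With the trends removed, its log2 ratio was 0.03. *Myd88* was the most abundant member per length in both libraries.

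It is not stated whether both mates of a read pair were counted. If they were, the counts hold pairs of reads from one fragment, and the intervals above are too narrow. With all counts divided by 2, an alternative added once the data had been seen, the intervals of 6 members lay wholly above equality, against 35.3% of all genes. Those of 2, *Tlr2* and *Myd88*, lay wholly below it, against 32.8%, while that of *Tlr9* reached from -1.50 to 0.21. The interval lay wholly past 2-fold for *Tlr3* and *Tlr4* with the deposited counts, against 16.0% of all genes on the higher side, and for *Tlr3* with the divided counts, against 13.1%.

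The order of the levels per length differed between the libraries below the 3 most abundant members, *Myd88*, *Tlr5* and *Tlr2*. With AAV-GFP, *Tlr9* came next at 0.624 TPM, then *Tlr1* at 0.607, *Tlr3* at 0.555, *Tlr7* at 0.378, *Tlr8* at 0.351, *Tlr6* at 0.208 and *Tlr4* at 0.129. Each of these overlapped its neighbour in the order within its counting interval. With AAV-*Wee1-AS*, *Tlr3* came next at 2.09 TPM, and its interval overlapped that of *Tlr2*. It was followed by *Tlr7* at 1.02, *Tlr1* at 0.981, *Tlr8* at 0.686, *Tlr6* at 0.615, *Tlr9* at 0.398 and *Tlr4* at 0.390, each again overlapping the next. Of the summed TPM of the 9 receptors, *Tlr5* held 62.1% with AAV-GFP and 57.3% with AAV-*Wee1-AS*, and *Tlr2* held 22.2% and 12.0%. *Tlr3* held 3.04% and 10.4%. *Tlr9* went from the third rank among receptors to rank 8, with 3.42% and 1.98%. Of these 9, *Tlr2*, *Tlr5* and *Tlr9* thus made up less and the other 6 made up more with AAV-*Wee1-AS*, with GC content not taken into account. When *Tlr11*, *Tlr12* and *Tlr13* were counted in, the share of *Tlr5* was 22.2% with AAV-GFP and 30.8% with AAV-*Wee1-AS*, the other direction, while that of *Tlr2* was 7.94% and 6.46% and that of *Tlr9* was 1.22% and 1.07%.

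**Figure D2:**
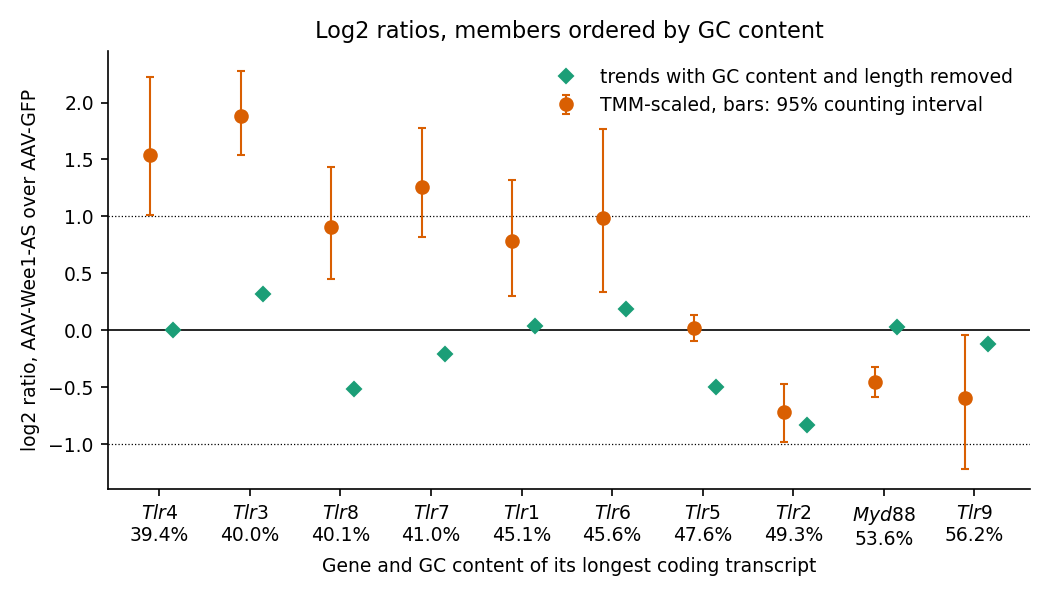
Log2 ratio of the AAV-*Wee1-AS* library over the AAV-GFP library for each member, ordered from low to high GC content (given under each name). Orange points are TMM-scaled ratios with 95% counting intervals, green diamonds are ratios with the trends with GC content and length removed, and dotted lines mark 2-fold. The orange points go from 1.88 for *Tlr3* down to -0.72 for *Tlr2*, and the diamonds stay between -0.83 and 0.32.

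The members' ratios were mostly higher where the GC content of the transcript was lower, with exceptions such as *Tlr2* and *Tlr8*. The GC content of the longest coding transcript was 39.4% for *Tlr4*, 40.0% for *Tlr3*, 40.1% for *Tlr8* and 41.0% for *Tlr7*, whose ratios ran from 1.88 to 3.68. It was 45.1% for *Tlr1* and 45.6% for *Tlr6*, with ratios of 1.72 and 1.98, 47.6% for *Tlr5* and 49.3% for *Tlr2*. The highest values, 53.6% for *Myd88* and 56.2% for *Tlr9*, belonged to members that were lower with AAV-*Wee1-AS*. At the third codon position, GC made up 72.5% of bases in *Tlr9* and 70.9% in *Myd88* but 44.2% in *Tlr4*, 45.0% in *Tlr7*, 45.5% in *Tlr8* and 48.5% in *Tlr3*. Across the 10 members, which share both libraries, Spearman's coefficient of the log2 ratio with GC content was -0.89, given as a description.

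The same relation ran through all genes. Over the 14995 tested genes with a GC value, Spearman's coefficient was -0.69 with GC content and 0.35 with transcript length, across genes that share the 2 libraries. When these genes were cut into 10 bins of like size by GC content, the lowest bin (31.2% to 42.0%) held *Tlr3*, *Tlr4*, *Tlr7* and *Tlr8*. The median log2 ratio of that bin was 1.51, 68.9% of its genes had a ratio above 2, and the middle 50% of its genes spanned 0.82 to 2.08. Of these 4 receptors, 3 were above 2, and all 4 lay within that span, with *Tlr8* near its lower end. *Tlr1* and *Tlr6* belong to a bin with a median of 0.72 and lay at 0.78 and 0.99. *Myd88* at -0.46 and *Tlr9* at -0.60 lay close to the medians of their bins, -0.35 and -0.61. *Tlr5* was lower than the median of 0.46 in its bin, and *Tlr2*, at -0.72, stood farthest from that of its own, 0.12. Whether the relation with GC content arose in the animals or in the making of the libraries was not tested.

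**Figure D3:**
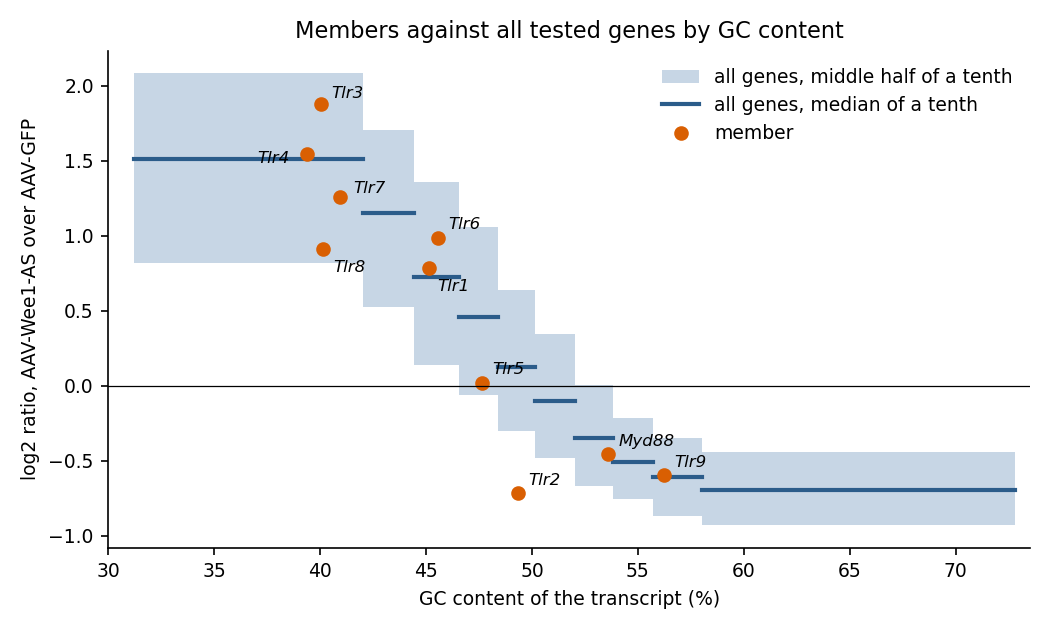
Log2 ratio of the AAV-*Wee1-AS* library over the AAV-GFP library against GC content of the transcript in percent. Blue lines give the median and pale boxes the middle 50% of genes in each of 10 bins of the 14995 genes, and orange points are the members. The medians go from 1.51 in the lowest bin to -0.70 in the highest, and *Tlr2* lies below the box of its bin.

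With the trends with GC content and length removed, 4 members were higher with AAV-*Wee1-AS*, 6 were lower, and their median log2 ratio was -0.06, against -0.02 for all genes. The log2 ratios went from -0.83 for *Tlr2* to 0.32 for *Tlr3*, within the middle 95% of all genes, which spanned -1.78 to 1.51. Spearman's coefficient of the members' ratios with GC content was then -0.22. The direction was kept by *Tlr1*, *Tlr2*, *Tlr3*, *Tlr6* and *Tlr9*, while the signs of *Tlr4*, *Tlr5*, *Tlr7*, *Tlr8* and *Myd88* turned. *Tlr2*, *Tlr3* and *Tlr9* kept their direction under all 13 alternatives tried, though *Tlr9* came to -0.04 with the GC trend alone removed. *Tlr6* kept its direction under the 12 that it could enter. The 3 filters, the lower prior count and the counts divided by 2 cannot turn the sign of a ratio. Their part in these tallies is therefore no test of direction.

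At the level of transcripts, the deposited estimates of *Tlr1*, *Tlr6* and *Tlr8* lay largely on different annotated isoforms in the 2 libraries, while those of *Tlr2* did not: its transcript of 2855 bases held 371 of 382 counts with AAV-GFP and 189 of 193 with AAV-*Wee1-AS*. The 94 counts of *Tlr8* in the AAV-*Wee1-AS* library were all assigned to a transcript of 4905 bases that had 0 counts with AAV-GFP, where all 59 were assigned to one of 5047 bases. For *Tlr1*, a transcript of 2721 bases had 43 and 0 counts and one of 3021 bases had 0 and 67. For *Tlr6*, a transcript of 3959 bases had 28 and 8 counts, and one of 2603 bases had 0 and 40. For *Tlr3*, a transcript of 4522 bases had 83 and 129 counts, and one of 4264 bases had 0 and 121. In *Tlr3*, the first of these was thus higher as well, and the second added a comparable number. For *Tlr7*, the transcript of 5528 bases led with AAV-GFP, with 23 against 6 counts, and that of 3794 bases with AAV-*Wee1-AS*, with 21 against 66. *Tlr5* had counts on all 9 of its transcripts, 8 of them above 0 in both libraries, and the transcript of 3339 bases led with 304 and 366 counts. *Tlr4*, *Tlr9* and *Myd88* each had 1 transcript. These numbers are shares of reads that overlapping transcripts compete for, so a switch of isoform was not measured by them.

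Genes that work with the receptors were read beside them, from lists of 90 genes, of which 82 passed the count filter. Of these, 17 had a ratio above 2 (22.2% of all genes did) and 20 had one below 0.5 (8.71% of all genes), 12 of the latter among the inducible genes described last, and the median log2 ratio was -0.39. Among the 17, *Il18rap* and *Il1rl2* passed the filter only through the library where they are higher. Among the 20, so did *Cxcl2*, *Ccl3*, *Ccl4*, *Ccl7* and *Nos2*. When 10 counts were required in both libraries, 15 pathway genes were above 2, against 3008 of all 14412 genes that passed. Below 0.5 were 15, against 884. With the trends removed, 1 pathway gene was above 2 (6.38% of all genes), *Il1rl2*, which had 0 counts with AAV-GFP. Below 0.5 were 17 (8.40%), with *Cxcl2*, *Ccl3*, *Ccl4* and *Ccl7* among them, and the median was -0.12. Of the mouse TLRs outside the family set studied here, *Tlr12*, a receptor for profilin, had more TPM than any member, 32.0 with AAV-GFP and 15.6 with AAV-*Wee1-AS*. Its log2 ratio was -1.01, and -0.50 with the trends removed. *Tlr13*, a sensor of bacterial ribosomal RNA, had 103 against 165 counts and *Tlr11* had 8 against 13, log2 ratios of 0.93 and 0.80, which were -0.21 and 0.08 with the trends removed.

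Of 12 co-receptors and chaperones, 2 were above 2 (22.2% of all genes were), 1 was below 0.5 (8.71%), and the median was -0.46. The members of the lipopolysaccharide receptor complex differed from each other. *Tlr4* was higher, and so was *Ly96*, its ligand-binding partner MD-2, with 40 counts against 92 (log2 ratio 1.42). *Cd14*, which hands lipopolysaccharide to them, had 486 against 149 counts, a log2 ratio of -1.43. Once the trends were removed, *Ly96* was at 0.26 and *Cd14* at -1.01, beside -0.0018 for *Tlr4*. *Unc93b1*, which carries the endosomal receptors to endosomes, was at -0.78, lower where the summed endosomal receptors were higher, and *Hsp90b1*, the chaperone gp96 that folds most TLRs, was at 1.15. These were -0.12 and 0.24 with the trends removed, where 2 of the 12, *Cd14* and *Ly86* (-1.40), were below 0.5 and none was above 2.

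Of 5 further adaptors, none was past 2-fold and the median was -0.16, and with the trends removed 1, *Ticam2* at -1.09 on 27 against 20 counts, was below 0.5. *Tirap*, which links *Tlr2* and *Tlr4* to MYD88, was at 0.99, and *Ticam1*, the adaptor of *Tlr3*, was at -0.64 with 1500 against 802 counts. *Tlr3* and its adaptor thus differed in direction, as did *Myd88* and most of the receptors that use it, although *Ticam1* was at -0.07 once the trends were removed. Of 17 kinases and ligases, 7 were above 2 (22.2% of all genes were) and none was below 0.5 (8.71%), with a median of 0.44. The 7 were *Traf6* (1.11), the ligase downstream of IRAK kinases, *Map3k7* (1.64), which encodes TAK1, its partners *Tab2* (1.37) and *Tab3* (2.50), *Chuk* (1.68), which encodes IKKα, *Tbk1* (1.24) and *Mapk8* (1.76), which encodes JNK1. *Irak4*, the first kinase to bind MYD88, was at 0.38. Without the trends, none of the 17 was above 2, 1 was below 0.5 (*Ikbkg* at -1.11, from 0.19 before), and the median was 0.14.

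Of 11 transcription factors, 1 was above 2 (22.2% of all genes were) and 4 were below 0.5 (8.71%), with a median of -0.68. *Rel*, an NF-κB subunit, was at 1.86, while the subunits *Nfkb2* and *Relb* were at -1.14 and -1.61, *Irf8* was at -1.12 and *Fos* at -1.14. None was past 2-fold with the trends removed. Of 11 inhibitors tested, 1 was above 2 and 2 were below 0.5, beside the same shares of all genes, with a median of -0.57. *Cyld*, a deubiquitinase that limits NF-κB signalling, was at 2.46, *Tnip1*, a partner of A20, at -1.01, and *Atf3*, a repressor induced by TLR signals, at -1.89. *Irak3*, a brake on IRAK kinases, was at 0.85 on 55 against 84 counts, *Tollip* at -0.09 and *Nfkbia* at -0.57. Of the inhibitors, *Atf3* at -1.54 was the one past 2-fold with the trends removed.

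Genes that TLR signals induce were mostly lower with AAV-*Wee1-AS*, with the trends and without them. Of 24 such genes, 19 passed the count filter, 16 were lower with AAV-*Wee1-AS* and 12 had a ratio below 0.5 (8.71% of all genes did), with a median log2 ratio of -1.02. Of these 12, *Cxcl2*, *Ccl3*, *Ccl4*, *Ccl7* and *Nos2* passed the filter only through the AAV-GFP library, where they are higher. They had to differ and are not counted as support. With the trends removed, 12 were below 0.5 (8.40% of all genes were), none was above 2 (6.38%) and the median was -1.14. These 12 again include the chemokines *Cxcl2*, *Ccl3*, *Ccl4* and *Ccl7*, which are not counted as support here either. The number below 0.5 was 7 when a gene needed 10 counts in both libraries (884 of all 14412 genes) and 7 when it needed 50 in 1 (825 of 12815). These filters test fewer of the low genes and leave out *Nos2* and the chemokines just named. The median log2 ratio was then -0.94 and -1.01. The number below 0.5 was 1 with FPKM values and 2 with TPM values, against 307 and 438 of all 15857 genes. The chemokine *Ccl5* had 213 counts against 54 (log2 ratio -1.68), *Il1rn*, the antagonist of the interleukin 1 receptor, 600 against 246 (-1.02), and the adhesion molecule *Icam1* 1412 against 581 (-1.02). Without the trends these were -1.02, -1.71 and -0.47. *Ccl2* had 72 against 10 counts, a log2 ratio of -2.39. *Cxcl1* at 1.28 and *Il1a* at 1.38 were above 2, and were at 0.68 and 0.18 with the trends removed. *Il6*, *Il10*, *Il12b*, *Ifnb1* and *Ptgs2* had 0 counts in both libraries, where up to 3 counts would be compatible with the depth. Of the interleukin 1 receptor family, whose signalling members also use MYD88 and which includes the decoy receptor *Il1r2*, 4 of 6 genes passed the filter. *Il1r1* (1.35) and *Il1rap* (1.50) were above 2, and both were at 0.08 with the trends removed. *Il18rap* had 4 against 12 counts and *Il1rl2* had 0 against 11. Both passed the filter only through the library where they are higher, so they had to differ. They are among the 17 pathway genes above 2 but give no support.

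**Figure D4:**
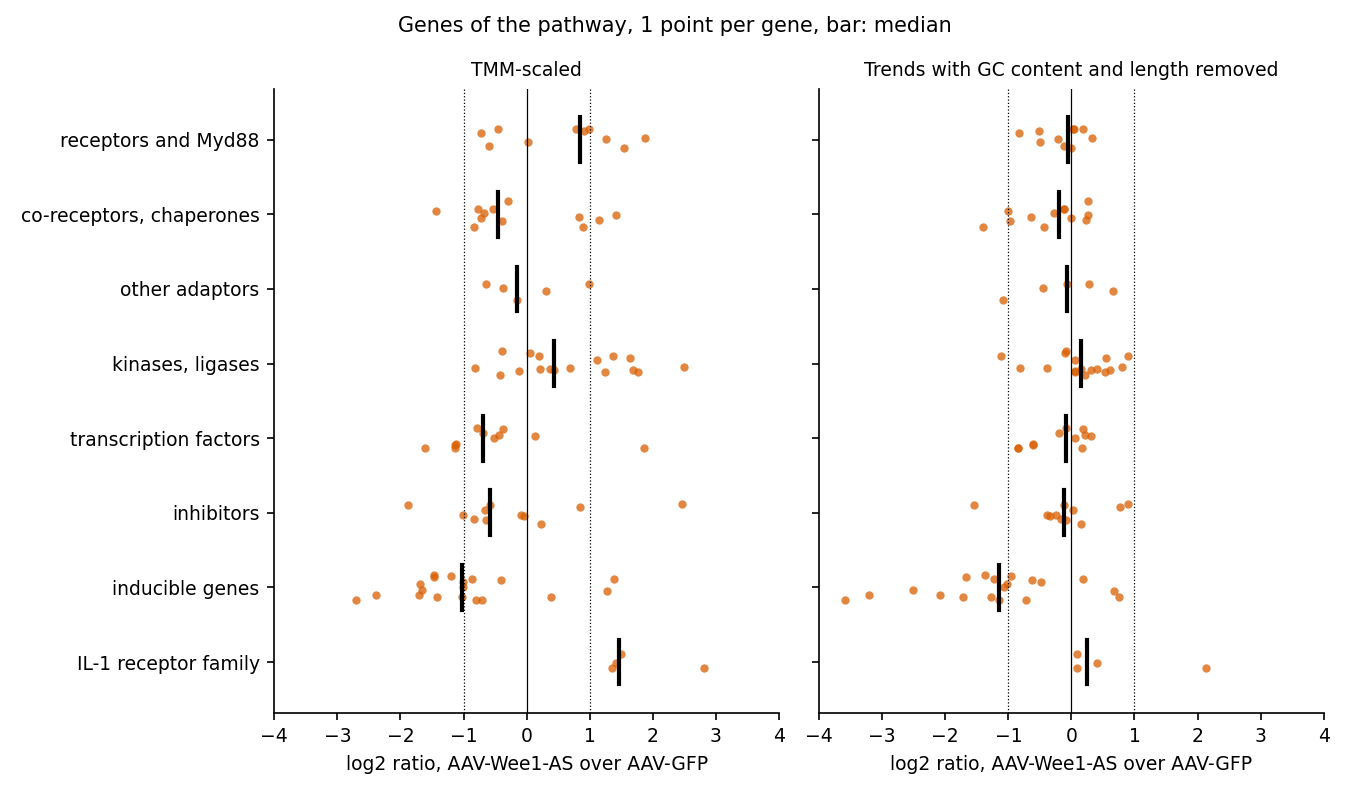
Log2 ratio of the AAV-*Wee1-AS* library over the AAV-GFP library of the members and of the pathway lists, 1 point per gene with the median as a bar, TMM-scaled (left) and with the trends with GC content and length removed (right). Dotted lines mark 2-fold. The members' median goes from 0.85 on the left to -0.06 on the right, and that of the inducible genes is -1.02 on the left and -1.14 on the right.

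Markers of the cells in which TLRs are best known were measured in the same libraries. All 12 markers of macrophages and Kupffer cells were detected in both, none was at 0, and their TPM summed to 998 with AAV-GFP and 655 with AAV-*Wee1-AS*. Most of that difference lay in 4 abundant genes, *Cd5l* (208 against 121 TPM), *C1qa* (168 against 87.9), *C1qb* (171 against 83.2) and *C1qc* (160 against 76.7). Of the 12, 3 had a ratio above 2 (*Marco* 1.60, *Vsig4* 1.52 and *Timd4* 1.40), against 22.2% of all genes. Below 0.5 were 2 (*C1qb* -1.01 and *C1qc* -1.03), against 8.71%, and the median was -0.27. *Adgre1*, which encodes F4/80, was at 0.09, *Clec4f*, a marker of Kupffer cells, at -0.15, *Lyz2* at 0.09, *Csf1r* at -0.40, *Cd5l* at -0.76, *Cd68* at -0.88 and *C1qa* at -0.91. *Marco*, at 2.16, was the one past 2-fold with the trends removed, and the median was -0.14. The 6 markers of leukocytes in general had a median of -1.11. Among them, *Ptprc* (1.13) and *Cd53* (1.14) were above 2 and the other 4 were below 0.5, while with the trends removed all 6 were lower, none past 2-fold, with a median of -0.48. Their TPM summed to 209 and 97.2.

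Of the markers of neutrophils, 5 of 6 passed the count filter, 2 were below 0.5 (8.71% of all genes were), *Ly6g* was at 0 in both libraries, and the summed TPM was 14.7 and 7.20. The median log2 ratio of these 5 markers was -0.47, and -0.91 with the trends removed, where all 5 were lower. Those of B cells summed to 3.91 and 3.14 TPM (median log2 ratio -0.37), and those of T and NK cells to 4.34 and 3.78 (-0.22). One B cell marker of 4, *Ms4a1*, had 0 against 23 counts and passed the filter only through the library where it is higher. Those of dendritic cells summed to 3.90 and 1.86 TPM, a difference carried by *Itgax* with 3.17 and 0.644 TPM (log2 ratio -2.24 with and -2.23 without the trends). Of the 5 dendritic markers, 3 were higher, and the median was 0.23. With the trends removed, the median was -0.31 for the dendritic markers and 0.14 for the B cell markers, both of the other sign, and 0.28 for the cholangiocyte markers named next. The markers of endothelial cells summed to 225 and 186 TPM (median log2 ratio -0.27), those of stellate cells to 195 and 137 (-0.84) and those of cholangiocytes to 3.77 and 3.59 (-0.03). With the trends removed, 8 of 9 endothelial markers were lower and 1 was higher, with a median of -0.49. The stellate list was not uniform, with *Col1a1* at -2.32, *Col1a2* at -2.02, *Col3a1* at -2.03 and *Pdgfrb* at -1.09 but *Lrat*, which stores retinol as esters, at 1.46. With the trends removed, all 8 stellate markers were lower, 3 of them below 0.5, with a median of -0.77 and *Lrat* at -0.05. The summed markers of macrophages, leukocytes in general and neutrophils were thus lower with AAV-*Wee1-AS*, as were *Tlr2*, *Tlr9* and *Myd88*, while *Tlr1*, *Tlr3*, *Tlr4*, *Tlr6*, *Tlr7* and *Tlr8* were higher. The sum of the T and NK cell markers was lower in TPM and slightly higher in TMM-scaled CPM, 3.62 against 3.71, and so was that of the cholangiocyte markers, 4.58 against 5.37. The part of cell composition in the members' values was not tested.

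**Figure D5:**
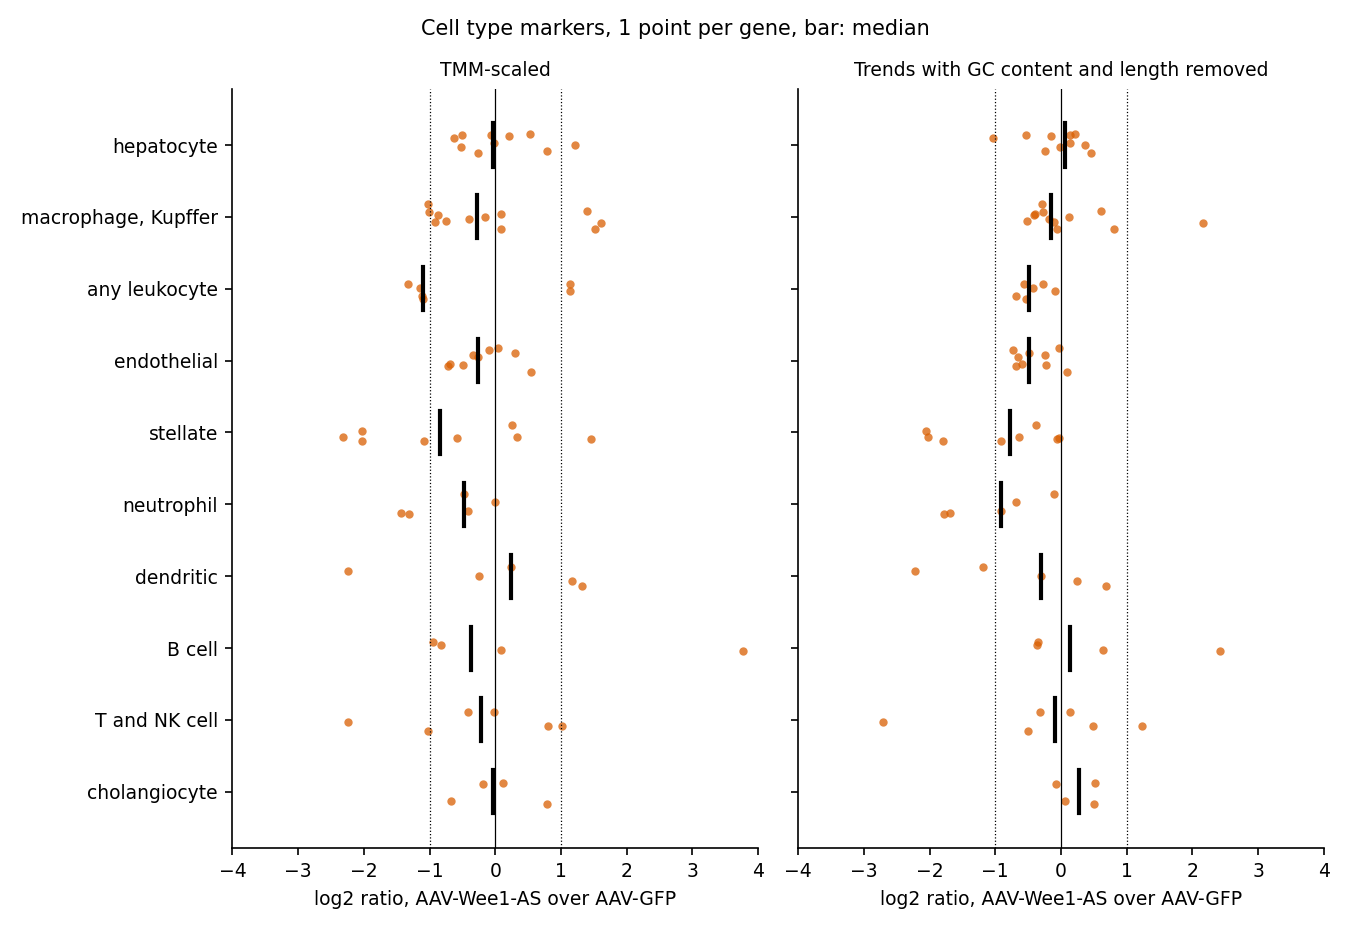
Log2 ratio of the AAV-*Wee1-AS* library over the AAV-GFP library of cell type markers, 1 point per gene with the median as a bar, TMM-scaled (left) and with the trends with GC content and length removed (right). Dotted lines mark 2-fold. The median of the macrophage and Kupffer cell markers is -0.27 on the left and -0.14 on the right, and that of the general leukocyte markers is -1.11 and -0.48.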

How the data were processed

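Poly-A RNA of mouse liver was sequenced as paired reads of 100 bases. Per the submitters' processing notes, the tools were Trimmomatic 0.38, HISAT2 2.1.0, SAMtools 1.9 and StringTie 2.1.3b on mm10. For each of 129299 RefSeq transcripts, the authors deposited an estimated count that is not normalized and the values in FPKM and in TPM for each library. The estimated counts equal FPKM times length over a constant, rounded up, and are shared out between overlapping transcripts.

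Here, estimated counts were summed per gene symbol and scaled by the TMM factors of edgeR 4.0.16 in R 4.3.3 (1.02 for the control and 0.980 for AAV-*Wee1-AS*). Log2 ratios were taken with a prior count of 2 for genes that reached 10 counts in 1 or both libraries. A ratio above 2 or below 0.5 was called. Exact (Clopper-Pearson) 95% intervals hold counting error alone, and PCR copies of a molecule make them too narrow. Counts of 3 or fewer served as a floor. Trends with GC content and length of the longest coding GENCODE M21 transcript were removed by lowess (span 0.3, 5 cycles) with statsmodels 0.14.6 in Python 3.11.15, for 94.6% of tested genes. The steps were tested on simulated data.

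Alternatives were 3 scalings (library totals, DESeq2 1.42.0 size factors, upper quartile), 3 filters, a lower prior count (0.5), the FPKM and TPM tables (pseudocount 1), removal of both trends or of the GC trend alone, the most abundant transcript only and, added after the data were seen, counts divided by 2. The members and lists were chosen with earlier results of these data known. Named genes were all members, pathway genes past 2-fold with 100 or more counts in a library, 10 pathway genes chosen by role and the macrophage and Kupffer cell markers. Named outside that rule, after their values were seen, were *Tlr11*, *Tlr13*, *Ly86*, *Ticam2*, *Ikbkg*, *Ccl2*, *Cxcl2*, *Ccl3*, *Ccl4*, *Ccl7* and *Nos2*. So were *Il18rap*, *Il1rl2*, *Il1r2*, the inducible genes at 0 counts, *Fam114a1* and the markers of other cell types.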

Additional observations from a re-analysis of the deposited data

How the results depend on the processing

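The number of members above 2 was 3, stayed at 3 under other scalings and filters and with counts divided by 2, and was 4 with a prior count of 0.5, where *Tlr6* passed the limit. The filters do not change a ratio, so they could only remove a member. The number above 2 was 0 with FPKM values, 0 with TPM values, 0 with the trends with GC content and length removed, 0 with the GC trend alone removed, and 5 when only the most abundant transcript of a gene was used, where *Tlr1*, *Tlr6* and *Tlr8* came in and *Tlr3*, at a log2 ratio of 0.91, dropped out. Of all 15857 genes tested, 1029 were above 2 with FPKM values and 1608 with TPM values. Of 14995 genes, 957 were above 2 with both trends removed and 1222 with the GC trend alone removed. Of 15782 genes, 3801 were above 2 with the most abundant transcript only. A pseudocount of 1 exceeds the FPKM and TPM of most members in the AAV-GFP library and so shrinks their ratios. The most abundant transcript is the one with the most counts over both libraries. For *Tlr1*, *Tlr6* and *Tlr8* it had 0 counts with AAV-GFP and 67, 40 and 94 with AAV-*Wee1-AS*. Their ratios in that setting thus follow how reads were shared out between isoforms. Causes of the other shifts were not tested. The members' median log2 ratio of 0.85 was 0.18 with FPKM values, -0.061 with both trends removed and -0.073 with the GC trend removed. *Tlr7* reversed, to -0.21 with both trends removed and -0.14 with the GC trend removed, and *Tlr4* went to -0.0018 with both removed. *Tlr8* turned from 0.91 to -0.51 with both removed and to -0.56 with the GC trend removed. Of the pathway genes, 17 were above 2, against 7 with FPKM values, 11 with TPM values, 1 with both trends removed and 4 with the GC trend removed. The 20 pathway genes below 0.5 became 3 with FPKM values and 6 with TPM values, while the 1381 of all genes below 0.5 became 307 and 438. The upper quartile moved the median of all genes from -0.02 to -0.22 and the calls from 3527 above 2 and 1381 below 0.5 to 2938 and 2232. With both trends removed these were 957 and 1260. Depth limits *Tlr1*, *Tlr4*, *Tlr6*, *Tlr8* and *Tlr9* most, each with under 100 counts in both libraries. No paired analysis was possible because each group has 1 library, and no library could be left out.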
